A study of Mus musculus with 18 samples.

Results

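Cathepsins and legumain are proteases of endosomes and lysosomes, and 10 genes of this group were followed here across macrophages sorted from the brains of bone marrow chimaeric mice. They were chosen by name (Ctse, Ctsa, Ctsb, Ctsc, Ctsd, Ctsh, Ctsl, Ctss, Ctsz and Lgmn) and make up 10 of the 13043 genes in the deposited table. All 10 had enough counts to be tested, among 10597 tested genes. RNA was measured by bulk MARS-seq, a method that counts unique molecular identifiers (UMIs), in 18 libraries of up to 100000 sorted cells each. Wild-type C57BL/6 recipients had been lethally irradiated and given marrow carrying Ms4a3-Cre, R26-TdTomato and Cx3cr1-gfp, and brains were taken 32 weeks later. Ms4a3-Cre acts in granulocyte-monocyte progenitors and leaves their progeny tdTomato-positive, and the Cx3cr1-gfp allele colours donor macrophages green.

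The groups were monocyte-derived microglia (GFP and tdTomato, 4 libraries), HSC-derived microglia (GFP without tdTomato, from haematopoietic stem cells by the label, 4 libraries), monocyte-derived leptomeningeal macrophages (4 libraries), HSC-derived leptomeningeal macrophages (2 libraries) and host microglia (neither colour, 4 libraries). Leptomeningeal cells had been washed off the brain surface after collagenase treatment, and microglia came from the digested remainder of the brain. All groups, host microglia included, came from irradiated and transplanted recipients, and origin here means the presence or absence of the labels. Neither the animals' age nor the number of mice behind each library is given in the sources used here, so p-values measure only the spread between these libraries.

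Cathepsins are made as inactive precursors, tagged with mannose 6-phosphate, carried to endosomes and lysosomes and activated at low pH. Cathepsins D and E are aspartic proteases, cathepsin A is a serine carboxypeptidase, cathepsins B, C, H, L, S and Z are cysteine proteases, and legumain cuts after asparagine and trims several cathepsins to their mature forms. In macrophages they degrade engulfed material, and cathepsins S and L cut the invariant chain that guards MHC class II molecules before peptides are loaded.

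Total counts per library ran from 154727 to 2440234, and 3 counts were therefore worth 1.05 CPM in the deepest and 23.0 CPM in the shallowest library (CPM are counts scaled to library size by the trimmed mean of M-values). HSC-derived microglia replicates 3 and 4 and HSC-derived leptomeningeal replicate 2 had under 400000 counts. Their share of ribosomal protein counts was 12.8%, 12.2% and 17.7%, against 7.81% and 7.99% in the deeper HSC-derived microglia libraries and 13.7% in the deeper HSC-derived leptomeningeal library. The summed level of 5 microglial markers (P2ry12, Tmem119, Sall1, Siglech and Cx3cr1) was 5130 to 5750 CPM in monocyte-derived microglia, 4010 to 5300 in HSC-derived microglia, 1240 to 2350 in monocyte-derived leptomeningeal macrophages, 1190 to 1270 in HSC-derived leptomeningeal macrophages and 11600 to 14200 in host microglia. Summed leptomeningeal macrophage markers (Mrc1, Pf4, Lyve1, Cd163, Cbr2 and Ms4a7) ran from 4610 to 5720 CPM in monocyte-derived and from 6710 to 9500 CPM in HSC-derived leptomeningeal libraries, from 1770 to 1870 CPM in monocyte-derived and from 1860 to 2530 CPM in HSC-derived microglia, and from 35.3 to 46.6 CPM in host microglia, where Lyve1 had no count. Transcripts of other cells were present too. The 6 measured neutrophil markers summed to 1100 to 2690 CPM in monocyte-derived leptomeningeal macrophages and to at most 51.6 CPM in every other group, and the 4 choroid plexus markers summed to 2060 to 3490 CPM in host microglia and to at most 479 CPM elsewhere.

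Together the 10 genes took 3.01% to 3.07% of all counts in monocyte-derived microglia, 2.79% to 2.88% in HSC-derived microglia, 1.39% to 1.54% in monocyte-derived leptomeningeal macrophages, 1.20% to 1.22% in HSC-derived leptomeningeal macrophages and 3.13% to 3.32% in host microglia. The share was thus lower in all 6 leptomeningeal libraries than in all 12 microglial libraries. Ctsd and Ctss together contributed 50% to 76.5% of these counts in every library. Because reads come from transcript ends and no level per length was computed, such shares describe counts and are not a ranking of transcript numbers between genes. In these sorted bulk samples, fewer expressing cells and less RNA per cell cannot be told apart.

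**Figure D1:**
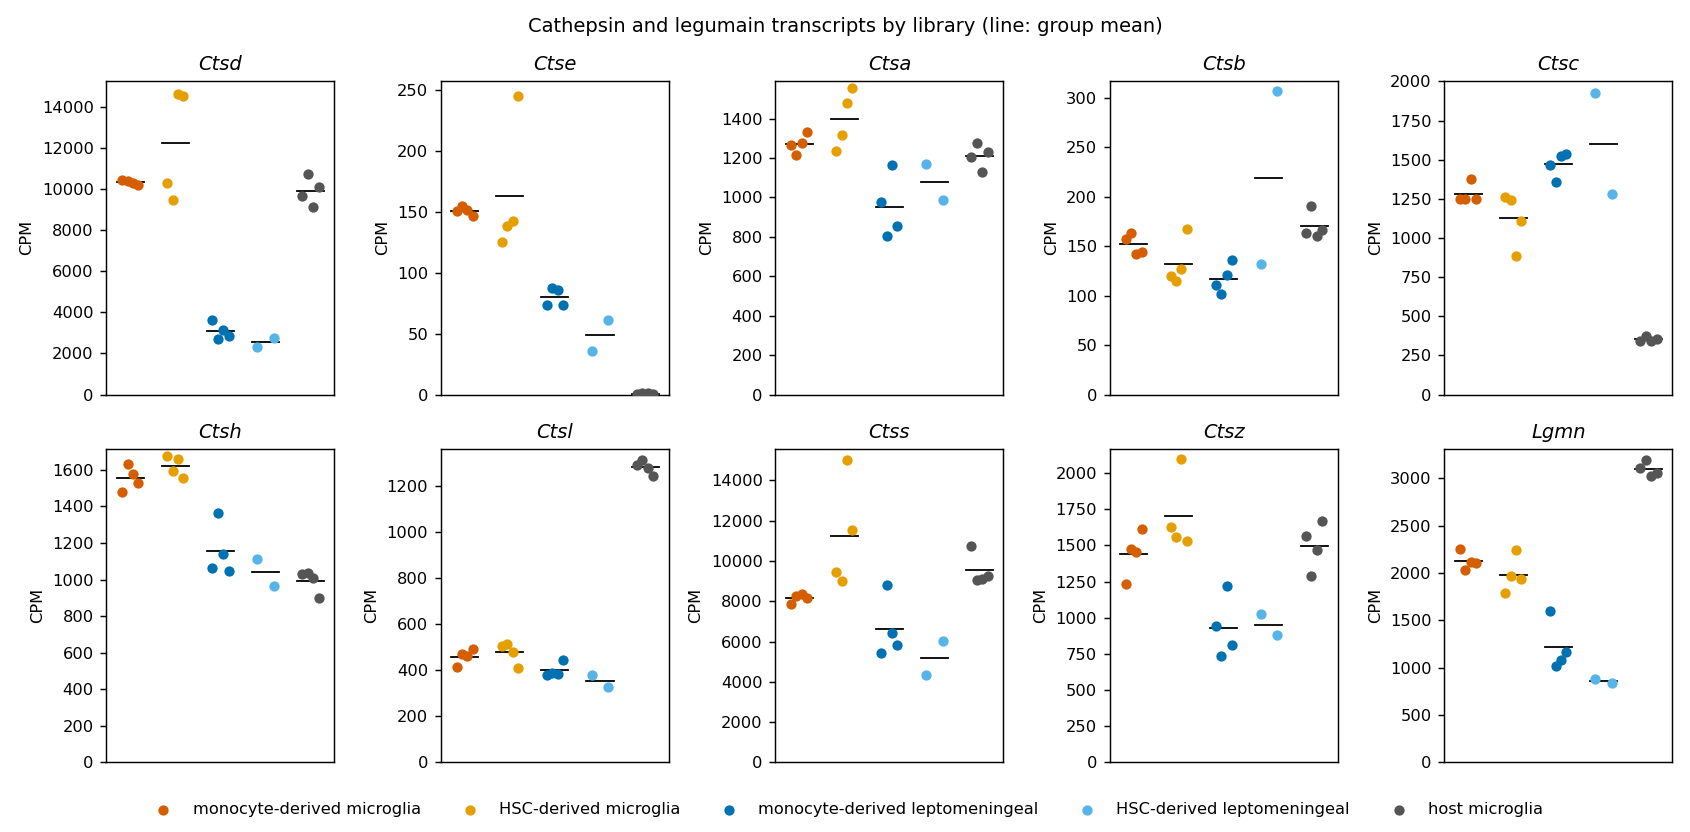
CPM of each of the 10 genes (vertical axes, linear and starting at 0) in the 18 libraries, with 1 point per library, a colour per group and a line at the group mean. Ctse and Ctsc are low and Ctsl and Lgmn high in all 4 host libraries relative to the 14 donor-derived libraries, and Ctsd is low in all 6 leptomeningeal libraries.

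**Figure D2:**
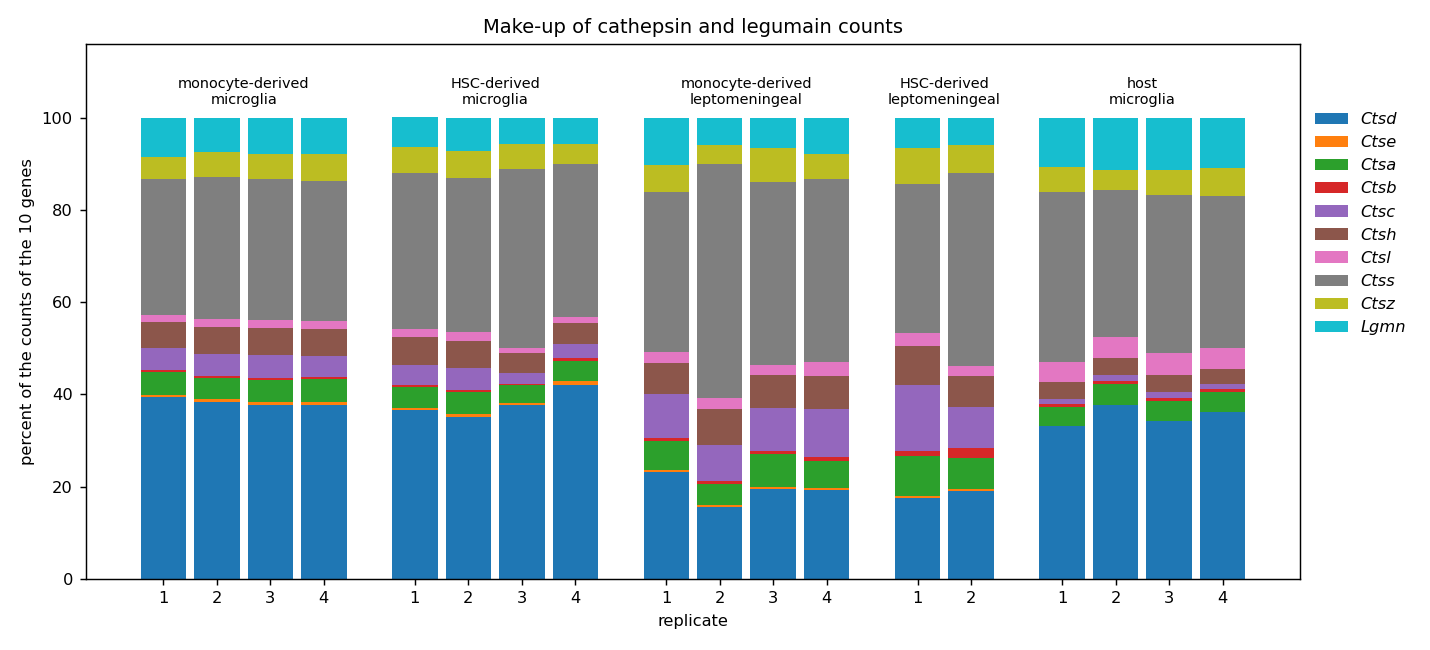
Percent of the summed counts of the 10 genes that each gene contributed (vertical axis) in each library (horizontal axis, replicates within groups). Ctsd contributes 15.5% to 23.2% in leptomeningeal libraries and 33.2% to 42.1% in microglial libraries.

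Of the 10 genes, Ctse separated donor-derived from host microglia most widely. It lies on chromosome 1 at chr1:131638306-131675505 on the plus strand (mm10, GENCODE vM21) and encodes cathepsin E, an endosomal aspartic protease of immune and epithelial cells. Its level was 151, 155, 152 and 147 CPM in monocyte-derived microglia and 125, 138, 143 and 245 CPM in HSC-derived microglia, against 0.712, 0.905, 1.05 and 0.666 CPM in host microglia. Host libraries held 7 Ctse counts in all, while the monocyte-derived and HSC-derived microglial libraries held 854 and 281, so every host library sat at the counting floor and no donor-derived library did. Scaled for depth, the ratio of counts was 172 (95% exact Clopper-Pearson interval 83.2 to 430, counting error only) for monocyte-derived and 169 (81 to 424) for HSC-derived over host microglia. The fitted log2 fold changes were 7.27 ± 0.52 (SE; edgeR quasi-likelihood, adjusted p = 3.9e-21) and 7.32 ± 0.52 (adjusted p = 1.98e-20). Both comparisons use the same 4 host libraries.

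Beyond Ctse, 2 cysteine cathepsins were higher and Ctsl and Lgmn were lower in monocyte-derived than in host microglia. In all, 5 of the 10 genes passed the threshold of 0.05 in the edgeR test adjusted over all genes, 3 higher and 2 lower, where 30.2% of all tested genes passed, 15.1% in each direction. The median log2 fold change of the 10 genes was 0.0041, against 0.013 for all tested genes. Against the same host libraries, HSC-derived microglia also had 3 genes higher and 2 lower, where 29.4% of tested genes passed, 16.2% higher and 13.1% lower. The median there was 0.22, against 0.0017 for all tested genes. The scaling factors of HSC-derived replicates 3 and 4 were 0.741 and 0.808, against 1.026 and 1.056 in replicates 1 and 2. The uncalled Ctsa, Ctsd, Ctss and Ctsz changed sign with the processing. Their changes were above 0 in this fit and reached -0.156, -0.086, -0.155 and -0.178 over the alternative fits. With scaling by total counts alone, the median of all genes in the HSC-derived comparison moved by -0.28 and the share of calls that were higher fell to 32% against 55.3%, while the 5 called genes kept their directions and Ctsb passed as lower (-0.72, adjusted p = 0.00234).

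**Figure D3:**
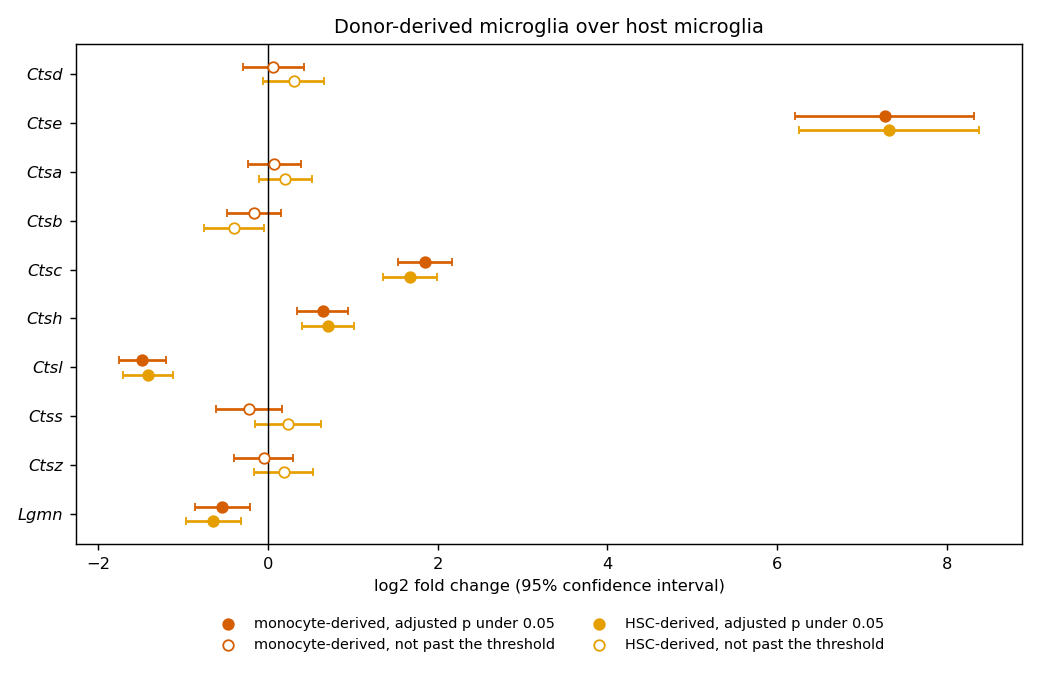
Log2 fold change of each gene (horizontal axis) in monocyte-derived and HSC-derived microglia over host microglia, with 95% confidence intervals; filled points passed an adjusted p of 0.05. Ctse, Ctsc and Ctsh lie to the right and Ctsl and Lgmn to the left of 0 in both comparisons, which share the host libraries.

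Ctsc, at chr7:88278085-88310888 on the plus strand, encodes the dipeptidyl peptidase that activates granule serine proteases of leukocytes. It stood at 1249.8, 1246, 1377 and 1247 CPM in monocyte-derived microglia and at 1261, 1245, 887 and 1109 CPM in HSC-derived microglia, against 345, 375, 344 and 353 CPM in host microglia. No donor-derived library overlapped the host range, and the lowest of them was HSC-derived replicate 3, one of the shallow libraries. The log2 fold changes were 1.85 ± 0.16 (adjusted p = 2.06e-11) for monocyte-derived and 1.67 ± 0.16 (adjusted p = 4.14e-10) for HSC-derived over host microglia.

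Ctsh, at chr9:90054152-90076089 on the plus strand, encodes an aminopeptidase. It was 1480, 1631, 1577 and 1529 CPM in monocyte-derived microglia and 1675, 1593, 1661 and 1553 CPM in HSC-derived microglia, against 1028, 1035, 1011 and 900 CPM in host microglia. Again neither donor-derived group overlapped the host libraries, and the changes were smaller, at 0.65 ± 0.15 (adjusted p = 0.000948) and 0.71 ± 0.15 (adjusted p = 0.000436).

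Ctsl, at chr13:64359337-64370890 on the minus strand, encodes cathepsin L, an endopeptidase that cuts the invariant chain in mouse thymic epithelium. Monocyte-derived microglia had 413, 469.95, 462 and 492 CPM and HSC-derived microglia 507, 515, 479 and 413 CPM, against 1293, 1313, 1277 and 1243 CPM in host microglia. Every host library was more than 2-fold above every donor-derived microglial library. The log2 fold changes were -1.48 ± 0.14 (adjusted p = 1.8e-10) and -1.41 ± 0.14 (adjusted p = 1.43e-09).

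Lgmn, at chr12:102394084-102439813 on the minus strand, encodes legumain. It was 2252, 2034, 2119 and 2104 CPM in monocyte-derived microglia and 1785, 1968, 2242 and 1934 CPM in HSC-derived microglia, against 3105, 3191, 3019 and 3059 CPM in host microglia. The donor-derived and host libraries did not overlap, and the log2 fold changes were -0.54 ± 0.16 (adjusted p = 0.00961) and -0.64 ± 0.16 (adjusted p = 0.00247).

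Cell type markers moved with these changes. Leptomeningeal macrophage markers were higher, 6 of 6, and microglial markers lower, 5 of 5, in monocyte-derived and in HSC-derived than in host microglia, with the sums given above. T and NK cell markers were higher, 5 of 5 and 4 of 5, and choroid plexus markers lower, 4 of 4 in both. Monocyte markers were higher, 3 of 4 and 2 of 4, as were dendritic cell markers, 2 of 4 and 3 of 4. The 1 measured astrocyte marker was lower in both. Oligodendrocyte markers were higher in 0 of 2 and 2 of 2. They summed to 40.9, 47.8, 204 and 198 CPM in HSC-derived replicates 1 to 4, the last 2 being shallow. Other lists were mixed or moved in 1 origin. These markers may not cover every cell type present. The part of all these cell types in the Ctse, Ctsc, Ctsh, Ctsl and Lgmn values was not tested. The microglial markers include Cx3cr1, and donor cells carry the Cx3cr1-gfp allele, which wild-type hosts lack. Donor-derived and host microglia thus differ in genotype as well as in origin, and these cannot be told apart here.

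The other 5 genes did not pass the threshold against host microglia in either comparison. For monocyte-derived over host microglia their log2 fold changes were 0.07 (95% confidence interval -0.24 to 0.39) for Ctsa, -0.17 (-0.48 to 0.15) for Ctsb, 0.06 (-0.30 to 0.42) for Ctsd, -0.23 (-0.61 to 0.16) for Ctss and -0.05 (-0.40 to 0.29) for Ctsz. For HSC-derived over host microglia they were 0.20 (-0.11 to 0.52) for Ctsa, -0.40 (-0.76 to -0.04) for Ctsb, 0.30 (-0.06 to 0.66) for Ctsd, 0.24 (-0.15 to 0.62) for Ctss and 0.18 (-0.16 to 0.53) for Ctsz. Ctsb had an adjusted p of 0.0839 in the HSC-derived comparison, of 0.036 without HSC-derived replicate 4 and of 0.0061 without the 3 shallow libraries (-0.54). Ctss, the invariant chain protease of mouse dendritic and B cells, was the uncalled gene whose monocyte-derived and host libraries did not overlap, at 7857, 8275, 8365 and 8173 CPM in monocyte-derived microglia and 10740, 9067, 9116 and 9276 CPM in host microglia. In a fit of only these groups it passed as lower (-0.19, adjusted p = 0.0264).

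Between monocyte-derived and HSC-derived microglia, none of the 10 genes passed the threshold in edgeR or in DESeq2, where 1.89% of tested genes passed in edgeR, 1.76% as lower. Ctss was the 1 gene with an unadjusted p under 0.05. Its log2 fold change was -0.46 (95% confidence interval -0.85 to -0.08, adjusted p = 0.212), with 7857, 8275, 8365 and 8173 CPM in monocyte-derived and 9466, 8995, 15025 and 11516 CPM in HSC-derived microglia. In CPM the libraries did not overlap, and the highest HSC-derived values came from replicates 3 and 4, the shallow libraries of that group. Their scaling factors, 0.741 and 0.808, raise their CPM. Over the alternative fits the Ctss change ran from -0.55 to -0.10 and never passed. The confidence intervals of all 10 genes lay between -0.85 and 0.60 on the log2 scale, which does not show that the origins are alike. With scaling by total counts alone, the median of all genes moved by 0.25 and higher calls made up 46.8% of calls against 6.5%, and again none of the 10 genes passed in edgeR.

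Of the 10 genes, Ctsd showed the widest difference between compartments. The gene lies at chr7:142375911-142388038 on the minus strand and encodes cathepsin D, the main aspartic protease of lysosomes, whose loss causes a lysosomal storage disease of the brain in mice and humans. Its level was 3637, 2686, 3163 and 2831 CPM in monocyte-derived leptomeningeal macrophages, against 10450, 10380, 10299 and 10213 CPM in monocyte-derived microglia. In HSC-derived cells it was 2338 and 2737 CPM in leptomeningeal macrophages, against 10302, 9461, 14653 and 14528 CPM in microglia. Leptomeningeal and microglial libraries did not overlap in either origin. The log2 fold changes were -1.75 ± 0.18 (adjusted p = 2.15e-09) in monocyte-derived and -2.27 ± 0.22 (adjusted p = 3.35e-08) in HSC-derived cells. These comparisons share no library.

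In monocyte-derived cells 6 of the 10 genes were lower in leptomeningeal macrophages than in microglia and none passed the threshold as higher, where 35.3% of tested genes passed, 16.3% as lower and 19% as higher. The median log2 fold change of the 10 genes was -0.43, against -0.043 over all tested genes. In HSC-derived cells 6 of 10 were lower and none higher, where 9.71% of tested genes passed, 3.96% as lower and 5.75% as higher, with a median of -0.73 against -0.060. Ctsd, Ctse, Ctsh, Ctsz and Lgmn passed as lower in both origins, so that 5 of the 6 genes of each list were shared. Ctsa passed in monocyte-derived cells alone and Ctss in HSC-derived cells alone. The edgeR test of whether the compartment difference depended on origin passed for neither (adjusted p = 0.988 for Ctsa and 0.496 for Ctss). Scaled by total counts, the median of all genes in the monocyte-derived comparison moved by -0.30 and calls in the higher direction made up 28.3% of calls against 53.9%. None of the 6 called genes changed direction, and Ctsb, Ctsl and Ctss also passed as lower, 9 of 10 in all.

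**Figure D4:**
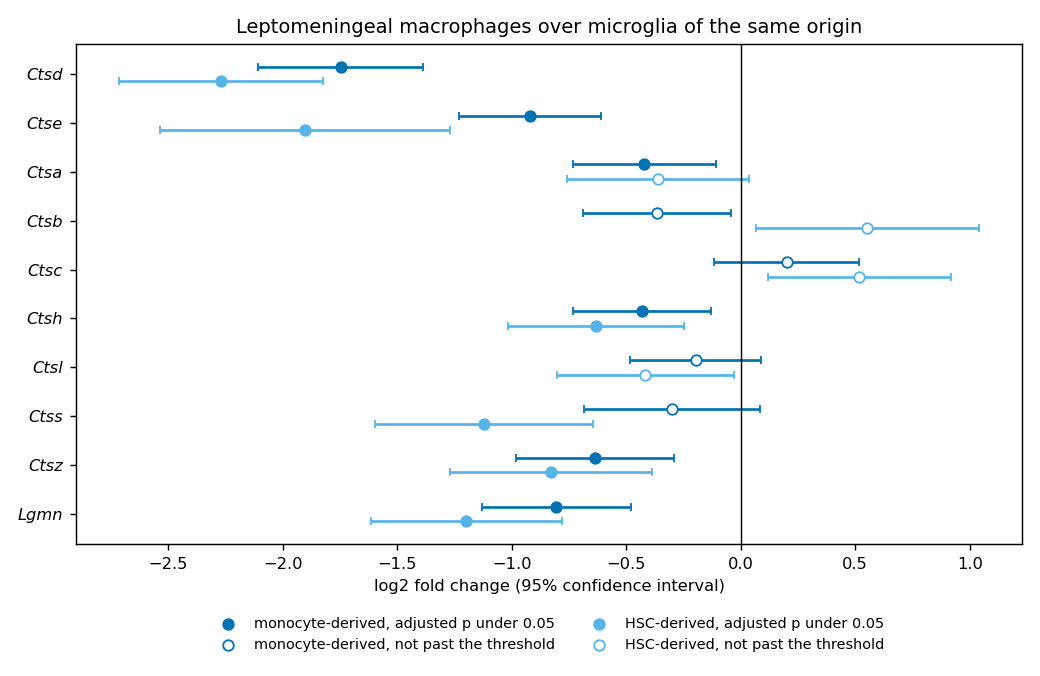
Log2 fold change of each gene (horizontal axis) in leptomeningeal macrophages over microglia of the same origin, with 95% confidence intervals; filled points passed an adjusted p of 0.05. Ctsd lies farthest to the left in both origins, and Ctsc is the gene right of 0 in both, past the threshold in neither in the edgeR fit of all libraries.

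Ctse followed Ctsd in size. It was 73.4, 87.4, 85.6 and 73.6 CPM in monocyte-derived leptomeningeal macrophages against 147 to 155 CPM in monocyte-derived microglia, and 35.9 and 61.3 CPM in HSC-derived leptomeningeal macrophages against 125 to 245 CPM in HSC-derived microglia. The log2 fold changes were -0.92 ± 0.15 (adjusted p = 1.13e-05) and -1.90 ± 0.31 (adjusted p = 2.31e-05). Without HSC-derived leptomeningeal replicate 1 the second was -1.43 (adjusted p = 0.0764). All 6 leptomeningeal libraries nevertheless stood above the 4 host microglial libraries, whose highest value was 1.05 CPM.

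Lgmn was 1602, 1022, 1079 and 1165 CPM in monocyte-derived and 880 and 843 CPM in HSC-derived leptomeningeal macrophages, against 2034 to 2252 and 1785 to 2242 CPM in microglia of the same origins. The log2 fold changes were -0.81 ± 0.16 (adjusted p = 0.000161) and -1.20 ± 0.21 (adjusted p = 0.000176). In an edgeR fit of only the compared groups the second was -1.17 and did not pass (adjusted p = 0.0807). Monocyte-derived leptomeningeal replicate 1 had the highest Lgmn and Ctsd of its group together with the highest sum of microglial markers, 2350 CPM against 1240 to 1650 CPM in the other 3 libraries. Its Ctse, Ctss and Ctsl were the lowest of the group, at 73.4, 5418 and 380 CPM, and its other genes lay within the group's range. Without that library the log2 fold changes in monocyte-derived cells were -0.97 for Lgmn and -1.84 for Ctsd. The part of microglial cells in these values was not tested.

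Ctsz, at chr2:174427493-174439039 on the minus strand, encodes a carboxypeptidase. It averaged 928 ± 213 CPM in monocyte-derived leptomeningeal macrophages and 1444 ± 159 CPM in monocyte-derived microglia (SD, n = 4 each), a log2 fold change of -0.64 ± 0.17 with an edgeR adjusted p of 0.00346. In HSC-derived cells it was 1023 and 882 CPM in leptomeningeal macrophages and 1704 ± 266 CPM in microglia (SD, n = 4), with a log2 fold change of -0.83 ± 0.22 and an edgeR adjusted p of 0.0125. Its libraries did not overlap in either origin. In HSC-derived cells the adjusted p was 0.0538 without leptomeningeal replicate 1 and 0.134 without replicate 2.

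Ctsh and Ctsa differed less. Ctsh averaged 1154 ± 148 CPM in monocyte-derived leptomeningeal macrophages and 1554 ± 64.6 CPM in monocyte-derived microglia (SD, n = 4 each), a log2 fold change of -0.43 ± 0.15 with an edgeR adjusted p of 0.0224. In HSC-derived cells the change was -0.63 ± 0.19 (adjusted p = 0.0308). Ctsa, at chr2:164832873-164841032 on the plus strand, encodes the carboxypeptidase that protects neuraminidase 1 and beta-galactosidase in the lysosome. It averaged 950 ± 160 CPM in monocyte-derived leptomeningeal macrophages and 1272 ± 48.2 CPM in monocyte-derived microglia (SD, n = 4 each; log2 fold change -0.42 ± 0.15, edgeR adjusted p = 0.0315). These calls were near the threshold. In monocyte-derived cells, Ctsa had an adjusted p of 0.06, 0.0599 and 0.0769 without microglial replicate 1, 3 or 4, and 0.112 and 0.101 without leptomeningeal replicate 2 or 4. Ctsh had 0.0599 without microglial replicate 2 and 0.0759 without leptomeningeal replicate 4, and in HSC-derived cells 0.0668 and 0.221 without leptomeningeal replicate 1 or 2.

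Ctss, at chr3:95526786-95556403 on the plus strand, was 5418, 8789, 6448 and 5851 CPM in monocyte-derived leptomeningeal macrophages, a range that held the value of every monocyte-derived microglial library. The log2 fold change was -0.30 (95% confidence interval -0.69 to 0.08, adjusted p = 0.227), and it passed without the 3 shallow libraries (-0.31, adjusted p = 0.037). In HSC-derived cells it was 4318 and 6041 CPM in leptomeningeal macrophages against 8995 to 15025 CPM in microglia, with a log2 fold change of -1.12 ± 0.23 (adjusted p = 0.0019, and 0.0776 without leptomeningeal replicate 1).

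Ctsc, Ctsl and Ctsb did not pass between compartments in the edgeR fit of all libraries. Ctsc was 1467, 1356, 1524 and 1535 CPM in monocyte-derived and 1923 and 1280 CPM in HSC-derived leptomeningeal macrophages, with log2 fold changes over microglia of 0.20 (-0.12 to 0.52, adjusted p = 0.339) and 0.52 (0.12 to 0.92, adjusted p = 0.087). In that fit its change was above 0 in both origins. Over the alternatives it ran from -0.10 to 0.24 in monocyte-derived and from 0.095 to 0.78 in HSC-derived cells. The HSC-derived value passed as higher in DESeq2 (0.54, adjusted p = 0.00122) and stayed uncalled in 10 of 13 alternatives. It was 0.63 without the 3 libraries under 400000 counts and 0.78 without leptomeningeal replicate 2 alone, and each of these leaves 1 HSC-derived leptomeningeal library. Ctsl was 380 to 444 CPM and 381 and 330 CPM in monocyte-derived and HSC-derived leptomeningeal macrophages, with changes of -0.20 (-0.48 to 0.09) and -0.42 (-0.80 to -0.03, adjusted p = 0.184). DESeq2 called Ctsl lower in both (adjusted p = 0.0446 and 0.0468). Ctsb, at chr14:63122462-63145923 on the plus strand, encodes an endopeptidase that also removes dipeptides from the carboxyl end. It was 110, 102, 121 and 136 CPM in monocyte-derived leptomeningeal macrophages against 158, 164, 142 and 144 CPM in monocyte-derived microglia (-0.37, adjusted p = 0.0721). It passed there without the 3 shallow libraries (adjusted p = 0.00647) and in a fit of only these groups (adjusted p = 0.0166). In HSC-derived leptomeningeal macrophages it was 132 and 307 CPM against 115 to 167 CPM in microglia (0.55, adjusted p = 0.168), and the higher value came from the shallow replicate 2. Without replicate 1, which leaves that library alone, the change was 1.17 (adjusted p = 0.0157).

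Neutrophil markers moved with the monocyte-derived compartment comparison and summed to 1100 to 2690 CPM in leptomeningeal macrophages, against 10.9 to 51.6 CPM in microglia, and monocyte markers summed to 607 to 879 CPM against 54.4 to 88.9 CPM. All 6 measured neutrophil and all 4 measured monocyte markers passed as higher. In HSC-derived cells the neutrophil sum was 3.42 and 30.7 CPM in leptomeningeal macrophages and at most 10.2 CPM in microglia. Ngp, Camp and Ltf were at 0 in these leptomeningeal libraries. In HSC-derived leptomeningeal macrophages monocyte markers summed to 541 and 314 CPM against 97.3 to 133 CPM in microglia, dendritic cell markers to 432 and 138 CPM against 11.7 to 92.9 CPM, and T and NK cell markers to 261 and 169 CPM against 0 to 95.7 CPM. Of the measured markers 2 of 4, 1 of 4 and 3 of 5 passed as higher. Microglial markers fell in both origins, 5 of 5 each. The part of these markers in the lower Ctsd, Ctse and Lgmn was not tested.

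Between monocyte-derived and HSC-derived leptomeningeal macrophages none of the 10 genes passed in edgeR or DESeq2, where 0.302% of tested genes passed in edgeR. There were 3 genes with an unadjusted p under 0.05 in edgeR, which were Ctse (log2 fold change 0.93, 95% confidence interval 0.31 to 1.56, adjusted p = 0.226), Ctsb (-0.68, -1.15 to -0.22, adjusted p = 0.267) and Lgmn (0.50, 0.08 to 0.91, adjusted p = 0.375). Ctsb passed without HSC-derived replicate 1 (-1.28, adjusted p = 0.02), which leaves the shallow library alone in its group. In the test of whether the compartment difference depended on origin, none of the 10 passed in edgeR or DESeq2, where 0.0566% of tested genes passed in edgeR. Ctsb (-0.92), Ctse (0.98) and Ctss (0.82) had an unadjusted p under 0.05 there, with adjusted p of 0.375, 0.465 and 0.496. Without HSC-derived leptomeningeal replicate 1, Ctsb passed at -1.54 (adjusted p = 0.0191).

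Ordered by mean level, Ctse ran from HSC-derived microglia (163 ± 55.4 CPM) and monocyte-derived microglia (151 ± 3.28 CPM), whose libraries overlapped, through monocyte-derived (80.0 ± 7.53 CPM, n = 4) and HSC-derived leptomeningeal macrophages (48.6 ± 18 CPM, n = 2) to host microglia (0.832 ± 0.177 CPM, n = 4; SD throughout). The last 3 steps of that order showed no overlap between neighbouring groups. The genes most like Ctse across the 18 libraries, by Pearson's r of log2 CPM, were Axl (0.986), Tmem176b (0.984) and Gpr65 (0.981). Cd93 was most like Ctsc (0.994), Trem2 most like Ctsd (0.97), Hsf2bp most like Ctsl (0.978) and Basp1 most like Lgmn (0.983). These libraries share 5 groups, and a correlation across them can differ from that within groups. Ctse and Ctsc correlated at 0.882 over all 18 libraries and at -0.468 after the group means had been removed, while Ctsa and Ctsz correlated at 0.877 and 0.646, and Ctsd and Lgmn at 0.859 and 0.565.

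Among cystatins and other inhibitors of cysteine cathepsins, 4 of 10 listed genes were measured. Cst3, which encodes cystatin C, was lower in monocyte-derived than in host microglia, at 20757 and 43906 CPM on average (log2 fold change -1.08 ± 0.20, adjusted p = 7.65e-05). In HSC-derived microglia it averaged 34610 CPM and did not pass against host microglia (-0.34 ± 0.20, adjusted p = 0.211). It was lower in monocyte-derived than in HSC-derived microglia, close to the threshold (-0.74 ± 0.20, adjusted p = 0.049). HSC-derived libraries ran from 25591 to 49015 CPM, with the shallow replicates 3 and 4 highest. The range was 19643 to 21676 CPM in monocyte-derived and 32789 to 52708 CPM in host microglia. Cst3 was not followed through the alternative fits. Cst7, which encodes cystatin F, was lower in monocyte-derived (-1.75 ± 0.17, adjusted p = 2.11e-10) and in HSC-derived microglia (-1.42 ± 0.21, adjusted p = 1.27e-06) than in host microglia. Cst3 was also lower in leptomeningeal macrophages than in microglia of both origins, by -0.62 ± 0.20 (adjusted p = 0.0161) in monocyte-derived and -1.40 ± 0.25 (adjusted p = 0.00034) in HSC-derived cells. Ctla2a and Cstb were higher there. Ctla2a changed by 1.70 and 2.47, and Cstb, which encodes the cytosolic inhibitor stefin B, by 0.85 and 0.76.

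Within each library, the counts of the 6 cysteine cathepsins (Ctsb, Ctsc, Ctsh, Ctsl, Ctss and Ctsz) were set against those of Cst3, a ratio that needs no scaling between libraries and is given here without a test. The ratio was 0.630 ± 0.0208 in monocyte-derived microglia, 0.487 ± 0.0718 in HSC-derived microglia, 0.789 ± 0.0331 in monocyte-derived leptomeningeal macrophages, 0.711 ± 0.016 in HSC-derived leptomeningeal macrophages (n = 2) and 0.324 ± 0.0579 in host microglia (SD, n = 4 otherwise). Host values ran from 0.277 to 0.405 and lay below every donor-derived library, the lowest of which was 0.414. Both shallow HSC-derived microglial libraries had the lowest donor-derived ratios, and their Cst3 levels, 49015 and 37194 CPM, were the highest of their group. Ctse counts per 100 Ctsd counts were 1.44 to 1.49 in monocyte-derived microglia, 0.974 to 1.69 in HSC-derived microglia, 2.02 to 3.25 in monocyte-derived leptomeningeal macrophages, 1.53 and 2.24 in HSC-derived leptomeningeal macrophages and 0.0066 to 0.0115 in host microglia.

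**Figure D5:**
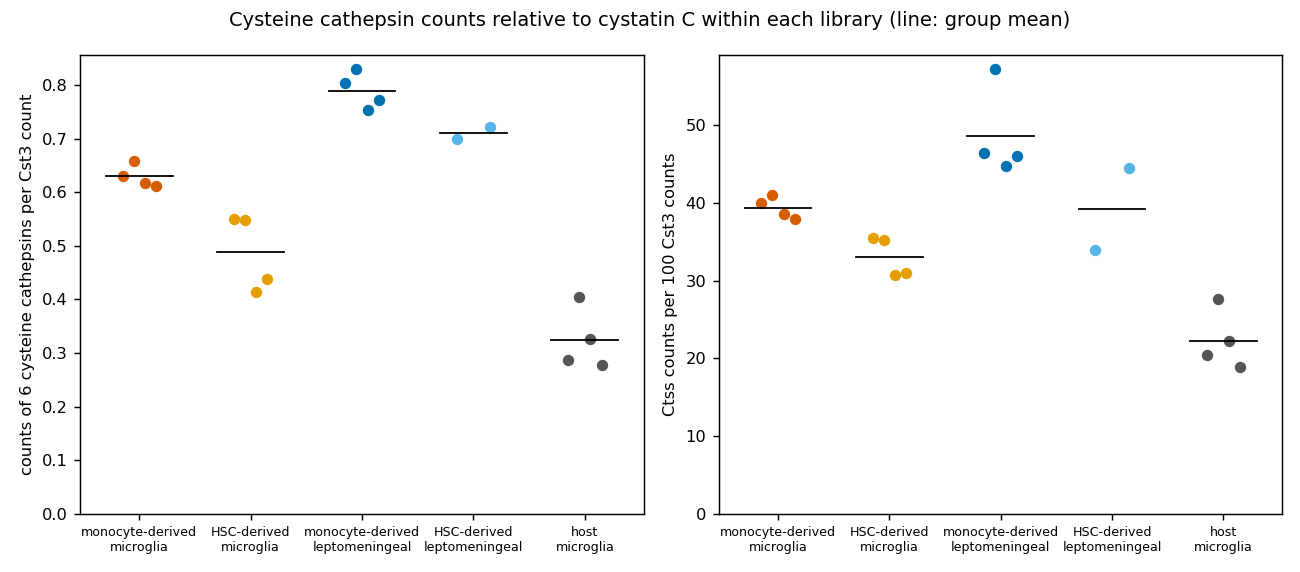
Counts of 6 cysteine cathepsins per Cst3 count (left) and Ctss counts per 100 Cst3 counts (right) in each library, with 1 point per library and a line at the group mean. Host microglia lie lowest in both panels, at 0.277 to 0.405 and at 18.9 to 27.7, and monocyte-derived leptomeningeal macrophages have the highest group means, 0.789 and 48.6.

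Other proteases of the same compartment gave mixed results. Of 14 further cathepsins listed, 5 had a row and 3 were tested. Ctsf, a cysteine cathepsin, was lower in monocyte-derived (-1.38 ± 0.15, adjusted p = 2.93e-09) and HSC-derived (-1.42 ± 0.17, adjusted p = 4.14e-08) than in host microglia, and lower again in leptomeningeal macrophages than in microglia (-1.08 ± 0.17, adjusted p = 3.35e-06, in monocyte-derived and -0.89 ± 0.30, adjusted p = 0.0444, in HSC-derived cells). Ctsw, known from cytotoxic lymphocytes, was higher in monocyte-derived leptomeningeal macrophages than in monocyte-derived microglia (2.58 ± 0.37), where T and NK cell markers summed to 194 to 458 CPM against 65.9 to 74.9 CPM. Their part in the Ctsw value was not tested. Napsa, which encodes the aspartic protease napsin A, averaged 203 CPM in monocyte-derived leptomeningeal macrophages and 8.53 CPM in monocyte-derived microglia (4.55 ± 0.37, adjusted p = 7.86e-10), and 99.4 CPM in HSC-derived leptomeningeal macrophages and 11.6 CPM in HSC-derived microglia (3.03 ± 0.54, adjusted p = 0.00029). Napsa thus ran opposite to the aspartic proteases Ctsd and Ctse between compartments. Of the 6 lysosomal proteases and peptidases listed, 4 were higher and 1 lower in monocyte-derived than in host microglia, among them Cpq, a carboxypeptidase (2.08 ± 0.17), and Tpp1, tripeptidyl peptidase 1 (-0.54 ± 0.13).

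Of the genes that sort and activate lysosomal enzymes, 7 of 8 listed were tested. In monocyte-derived over host microglia 1 was higher and 3 were lower, and in HSC-derived over host microglia 2 were higher and 3 lower. Sort1, which encodes the sorting receptor sortilin, was lower in monocyte-derived (-1.58 ± 0.15, adjusted p = 7.7e-11) and HSC-derived microglia (-2.02 ± 0.19, adjusted p = 5.67e-11) than in host microglia, and it was the 1 gene of this list that passed between compartments in each origin, at -1.43 ± 0.18 and -1.64 ± 0.43. Gnptab, which encodes the enzyme that begins the mannose 6-phosphate tag, was higher than in host microglia (1.14 ± 0.17 and 0.91 ± 0.21). Of 4 transcription factors of lysosomal genes, Tfec was higher (2.53 ± 0.65 and 2.59 ± 0.74) and Tfe3 lower (-0.63 ± 0.15 and -0.84 ± 0.18) in monocyte-derived and HSC-derived than in host microglia.

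Of 8 genes of the invariant chain and class II loading, 5 were higher and 1 lower in monocyte-derived than in host microglia, and 7 were higher in HSC-derived than in host microglia. Between compartments 7 were higher in monocyte-derived and 6 in HSC-derived leptomeningeal macrophages. Dendritic cell markers summed to 209 to 282 CPM in monocyte-derived leptomeningeal macrophages against 14.9 to 32.7 CPM in monocyte-derived microglia, and 3 of 4 passed as higher. The part of dendritic cells in the class II values was not tested in either origin. Cd74, the invariant chain and a substrate of cathepsin S, averaged 1212 CPM in monocyte-derived microglia, 3160 CPM in HSC-derived microglia and 49.2 CPM in host microglia (log2 fold changes over host 4.62 ± 0.19 and 5.997 ± 0.19). In leptomeningeal macrophages it averaged 11506 CPM in monocyte-derived and 16098 CPM in HSC-derived cells, higher than in microglia by 3.25 ± 0.18 and 2.35 ± 0.22. The Ctss values given above stand beside these, with no call against host microglia in the edgeR fit of all libraries and fitted changes below 0 between compartments. H2-Aa, H2-Ab1 and H2-Eb1 passed the edgeR test of whether the compartment difference depended on origin, with adjusted p of 0.0312, 0.0372 and 0.00802. None of the 10 proteases did. Over all genes that test called 6. With scaling by total counts alone it called 1, and so did a fit of only the compared groups, so most of these 6 calls depend on the processing. Of the proteases that cathepsin C activates, 3 of 6 listed were tested, and Gzma, Gzmb and Gzmk, granzymes of lymphocytes, were all higher in monocyte-derived leptomeningeal macrophages than in microglia (3.00, 2.06 and 2.58), beside the higher T and NK cell markers given above.

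The 250 bases before the annotated start were available from RefSeq (GRCm38.p6) for 7 of the 10 genes, in 9 windows. Ctse, Ctsb and Ctsh were not in that set. The letters CACGTG, an E-box at the core of the element bound by TFEB and related factors at lysosomal genes, occurred in 4 of the 9 windows, 1 each for Ctsa, Ctsd, Ctsl and Lgmn, and in 6.02% of the 32851 windows of that length. CACGTG reads the same on both strands. The longer form TCACGTGA, which contains it, occurred in Ctsa and Ctsd and in 0.785% of all windows. All sites found are shown, 5′ to 3′ on the gene's strand with the E-box in capitals. The genes that hold them did not change alike in the edgeR fit of all libraries. Ctsd, Lgmn and Ctsa were lower in monocyte-derived leptomeningeal macrophages than in microglia, and Ctsl was not called there. Ctsl and Lgmn were lower in donor-derived than in host microglia, and Ctsd and Ctsa were not called there. Any part of these sites in the levels was not tested. The Ctsd sites begin 245 and 98 bases before the RefSeq start and those of Ctsa, Ctsl and Lgmn 12, 236 and 49 bases before a start. The second Ctsd site and the Ctsa and Ctsl sites overlap an exon that GENCODE vM21 gives for the gene. Ctsa and Lgmn had 2 windows each, and for both genes the one farther upstream held no such site. By the GENCODE positions the first Ctsd site lies before the gene, and all the other sites lie within the span of their gene.
Ctsd, chr7:142388057-142388077, minus strand: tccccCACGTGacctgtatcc
Ctsd, chr7:142387910-142387935, minus strand: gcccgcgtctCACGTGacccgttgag
Ctsa, chr2:164833751-164833772, plus strand: agcaaactgtCACGTGatgcag
Ctsl, chr13:64370741-64370766, minus strand: cgttagaagcCACGTGctgatctaaa
Lgmn, chr12:102439126-102439151, minus strand: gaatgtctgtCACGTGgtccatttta
The second Ctsd site and the Ctsa site hold the longer form. A match describes letters and not binding, and Ctsz, lower between compartments in both origins, and Ctss had none in their windows.

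Some of the 10 genes overlap other annotated genes, and whether counting used the strand is not stated in the sources used here. Ctsa overlaps Pltp on the opposite strand over 1515 bases, and Pltp averaged 438 CPM in monocyte-derived and 942 CPM in HSC-derived leptomeningeal macrophages, against 90.4 and 141 CPM in microglia of the same origins and 4.95 CPM in host microglia, so Ctsa values are uncertain to that extent. Ctsd shares 6757 bases with Gm49369 on the same strand, a gene counted at 3.28 to 56 CPM across all libraries. Ctss and Ctsl contain the pseudogenes Hmgb1-ps5 and Gm49230, of which Hmgb1-ps5 was counted at no more than 23 CPM and Gm49230 was not analysed here.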

How the data were processed

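Bulk MARS-seq libraries of sorted brain macrophages were taken from 1 table of the whole series. Per the file headers, the authors deposited UMI counts as whole numbers beside scaled and transformed forms of the same data, and only the counts were used. The genome build was mm10, per the submitters' processing notes; which aligner, counting program and gene filter were used, and whether strand was used, is not given in the sources used here. There are 2 further columns of counts that match no described sample, and these entered no step.

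Low genes were removed with filterByExpr in edgeR 4.0.16 under R 4.3.3, with limma 3.58.1 installed, and libraries were scaled by TMM. A robust quasi-likelihood model with 1 coefficient for each group was fitted to all 18 libraries (common biological coefficient of variation 0.16). The 7 comparisons were two-sided; p-values were adjusted by Benjamini-Hochberg across the 10597 genes, with 0.05 as the threshold. Standard errors and 95% confidence intervals come from that fit. The code was tested on simulated data. Alternatives were other scalings, no filter, DESeq2 1.42.0, a fit of the compared groups only, a replicate block, leaving out the 3 libraries under 400000 counts, and leaving out each library in turn.

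The 10 genes, the companion lists and the markers were chosen with earlier results of these data known. All 10 genes were named in every comparison. From each companion list up to 4 genes past the threshold with the smallest p could be named, and similar genes were ranked by Pearson's r of log2 CPM with a prior count of 2. The counting intervals and floors leave out every error but that of counting. Gene positions are from GENCODE vM21, and sequences before starts are from RefSeq GRCm38.p6. Of the markers, 1 is not reported here.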

Additional observations from a re-analysis of the deposited data

Results flagged for a closer look

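In groups of 4 libraries, 5 of 40 sets of values held 1 library far from the other 3, measured as the gap to its nearest neighbour over the range of the group; chance alone gives about 1 such set in 20. Ctse was 245.18 CPM (63 counts) in HSC-derived microglia replicate 4, against 125.4 to 142.66 CPM in the other 3 libraries. Ctsz was 2099.2 CPM in HSC-derived microglia replicate 3, against 1529.5 to 1626 CPM. Both libraries have under 400000 counts. Ctsc was 1376.7 CPM in monocyte-derived microglia replicate 3, against 1246.1 to 1249.8 CPM, a group with little spread otherwise. Ctsl was 444.39 CPM in monocyte-derived leptomeningeal replicate 4, against 380.09 to 389.84 CPM. Ctss was 10740 CPM in host microglia replicate 1, against 9067.1 to 9276.1 CPM. In all 5 sets it was the highest library that stood apart.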

How the results depend on the processing

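Across the alternatives run, 15 of 22 called values of single genes kept their call and none of the 10 genes changed direction while called; of 48 uncalled values 37 were never called. Between leptomeningeal macrophages and microglia of HSC origin, a fit of only the compared groups called 2 of the 10 genes (Ctsd and Ctse) in place of 6, and over all genes 206 in place of 1029. That fit also called 2066 genes in place of 3113 for HSC-derived over host microglia, 20 in place of 200 between both donor-derived microglia, 16 in place of 32 between both leptomeningeal groups and 1 in place of 6 for the dependence on origin. DESeq2 called 552, 61 and 14 genes in the last 3 of these, and total-count scaling called 124 between both microglia and 1 for the dependence on origin. Without the 3 libraries under 400000 counts, 50 genes passed between both microglia and 72 between both leptomeningeal groups, where Ctse became the 1 gene of the 10 that passed (1.14, adjusted p = 0.0311); the lone HSC-derived leptomeningeal library is then assumed to vary like the other groups, as it is when either library of that group is left out. In the same setting Ctsz no longer passed between compartments in HSC-derived cells (adjusted p = 0.0602). The cause of these changes was not tested.

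Leaving out single libraries, 3 to 6 of the 10 genes passed between compartments in HSC-derived cells (lowest without leptomeningeal replicate 1) and 4 to 6 in monocyte-derived cells (lowest without leptomeningeal replicate 4), 5 to 6 for HSC-derived over host microglia (6 without HSC-derived replicate 4), 5 for monocyte-derived over host microglia, 0 between both microglia, and 0 to 1 between both leptomeningeal groups and for the dependence on origin. Over all genes these ranges were 363 to 1241, 3137 to 3745, 2613 to 2903, 2591 to 2865, 31 to 555, 12 to 90 and 0 to 40.

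Deviations from the group means correlated at -0.0772 to 0.0575 between libraries of the same replicate number in comparisons of 4 pairs. Between monocyte-derived microglia and monocyte-derived leptomeningeal macrophages all of these were above 0, at 0.0143 to 0.0575. Between the HSC-derived microglia and leptomeningeal libraries they were -0.321 to 0.323. With 2 leptomeningeal libraries, the deviations of 1 mirror those of the other. Leptomeningeal replicate 1 correlated at 0.323 and 0.321 with microglial replicates 1 and 2, and at -0.248 and -0.219 with replicates 3 and 4. Microglial replicates 1 and 2, and 3 and 4, thus formed 2 unlike pairs. Their counts differed by a chi-square per degree of freedom of 1.72 and 2.55 within pairs and 8.6 to 11.2 across them. Whether a shared number means shared mice is not given in the sources used here, and these correlations cannot decide it. With the replicate block, 2998 genes passed for monocyte-derived and 2951 for HSC-derived over host microglia, 238 between both microglia, 3543 and 1033 between compartments in monocyte-derived and HSC-derived cells, 42 between both leptomeningeal groups and 4 for the dependence on origin, and the counts among the 10 genes were as reported. The HSC-derived leptomeningeal group rests on 2 libraries, and at its depth 3 counts reach 23.0 CPM in the shallower one.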
